A study of Mus musculus with 18 samples.

Results

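The 10 genes described here, Afp, Gpc3, Igf2bp1, Igf2bp2, Igf2bp3, Lin28b, Sox4, Bex1, Ly6d and Cd44, are oncofetal and stemness genes: genes of the fetal liver, or of stem and progenitor cells, whose transcripts are often found again in liver cancer. They were taken by name, through GENCODE M21 symbols of the Ensembl identifiers in the bulk count table, and are 10 of its 55335 genes. Each was followed through the 12 bulk RNA-seq libraries of mouse liver tumours and set beside Prom1, the gene by which cells were removed in this study. Its product, prominin-1 or CD133, sits in membrane protrusions of many epithelial progenitors.

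Oncofetal genes are active in the embryonic liver, are shut down around birth, and can return in hepatocellular carcinoma. Afp, a secreted relative of albumin, and Gpc3, a proteoglycan tethered to the cell surface, are the ones used in diagnosis. Igf2bp1, Igf2bp2 and Igf2bp3 code for RNA-binding proteins that bind and stabilise messages of growth genes. Lin28b codes for a protein that stops the maturation of let-7, a microRNA family that holds such messages down in adult tissue. Sox4 codes for a transcription factor of progenitor cells, Bex1 for a small adaptor protein, Ly6d for a surface protein of the Ly6 family, and Cd44 for the main receptor of the matrix polymer hyaluronan.

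The tumours came from 2 models. In DEN+CCl4 mice, N-nitrosodiethylamine (DEN), which damages DNA, was given once at 14 days of age (1 mg/kg). Carbon tetrachloride (CCl4), which injures hepatocytes, followed from 8 weeks of age in repeated doses of 0.2 ml/kg over 12 to 16 weeks, so the length of treatment, and the age with it, may differ between libraries. N-Ras+AKT mice had received plasmids for N-RasV12 and myristoylated AKT (20 µg each, both behind an EF1a promoter) together with 1.6 µg of Sleeping Beauty transposase through the tail vein, a route that delivers DNA to hepatocytes. In each model 3 libraries are labelled as controls and 3 as Prom1 depletion, the latter from Prom1C-L/+;Rosa26DTA/+ mice. In these, tamoxifen (4 mg doses) activates a CreERT2 recombinase made from the Prom1 locus, which switches on diphtheria toxin A. Any cell with an active Prom1 locus at dosing can thus be lost, in the tumour or outside it. The interval from the last tamoxifen dose to collection was 16 days in DEN+CCl4 and 6 days in N-Ras+AKT, so the models differ in it as well. The strain label gives the knock-in genotype to all 12 libraries, whereas the design text names Prom1+/+;Rosa26DTA/+ littermates as controls and also mentions an olive oil vehicle. What the controls lacked is therefore not settled. Nothing says that each library is a separate animal, so p-values measure only the spread between these libraries, which may be technical.

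Library totals were 31306617 to 48055812 counts. Levels are in CPM, counts scaled to 1e6 per TMM-adjusted library, and a library is named by its group and the number in its title. The summed level of 14 hepatocyte markers was at least 98370 CPM in every library, with none of the markers at 0. Prom1 was 60.09, 76.71 and 48.90 CPM in DEN+CCl4 controls 7, 8 and 13 and 17.45, 39.98 and 35.66 CPM in depletion libraries 6, 9 and 10. It was 45.36, 59.21 and 78.25 CPM in N-Ras+AKT controls 3, 10 and 15 and 5.807, 16.49 and 2.166 CPM in depletion libraries 6, 11 and 17. In both models all depletion libraries lay below all controls, and the difference passed the test in N-Ras+AKT (adjusted p = 0.00953) and not in DEN+CCl4 (adjusted p = 0.381). A pair of libraries stood apart. N-Ras+AKT depletion 17 had a summed level of 9 bile duct markers of 309.6 CPM, against 2152 and 3486 CPM in the other depletion libraries and 7146 to 10340 CPM in the controls of that model. DEN+CCl4 depletion 6 had the lowest sums in its model of 10 proliferation markers (6.407 CPM, against 51.16 to 155.5 CPM) and of 9 stellate cell and fibroblast markers (84.13 CPM, against 201.7 to 347.4 CPM). Its sums were also the lowest of its model for hepatocyte (213200 CPM), leukocyte (132.8 CPM), bile duct (48.47 CPM), endothelial (131.4 CPM), erythroid (3.621 CPM) and squamous markers (1.254 CPM). Its total of 31306617 counts was the smallest of all libraries. Results for the 10 genes in which libraries of this pair stood apart are given with and without them.

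The 3 IGF2BP genes and Lin28b are tied together by let-7, which is why its sequences are shown first. RefSeq lists 9 mature mouse let-7 family members, and all 9 share the seed GAGGUAG at bases 2 to 8. The letters after the seed differ between members, as in this pair, printed with the seed in capitals.
mmu-let-7a-5p: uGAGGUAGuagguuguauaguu
mmu-let-7i-5p: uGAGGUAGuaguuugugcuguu
The reverse complement of the seed, CTACCTC, was searched on the sense strand in the longest annotated 3′ untranslated region (UTR) of each gene (GENCODE M21, GRCm38). Lin28b and Igf2bp1 held 4 matches each, Igf2bp2 and Igf2bp3 held 1 each, and Afp, Gpc3, Sox4, Bex1, Ly6d and Cd44 held 0. Of 21020 genes with a 3′ UTR, 9.02% held at least 1. The first match of each of the 4 genes is shown with 15 bases before it and 1 after it, the match in capitals.
Igf2bp2, from base 1313 of 1784: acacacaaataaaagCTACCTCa
Igf2bp3, from base 548 of 2119: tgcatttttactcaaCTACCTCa
Lin28b, from base 36 of 4445: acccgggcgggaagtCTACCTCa
Igf2bp1, from base 1715 of 6337: gctgtgcgaagtaaaCTACCTCa
Per kb of 3′ UTR the matches numbered 0.9 in Lin28b, 0.63 in Igf2bp1, 0.56 in Igf2bp2 and 0.47 in Igf2bp3, against 0.0698 over all genes. A match is a run of letters and not a measured site, and let-7 itself, which has no poly-A tail when mature, was not measured here.

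Levels of different genes can be compared only per length, here as CPM per kb of exon. In the DEN+CCl4 controls the order of the means was Ly6d (270.1 ± 102.3), Gpc3 (68.1 ± 10.7), Afp (65.7 ± 25.8), Bex1 (3.76 ± 1.97), Sox4 (2.13 ± 0.476), Cd44 (1.61 ± 0.244), Igf2bp2 (0.0631 ± 0.0318) and Igf2bp3 (0.0623 ± 0.0260, SD, n = 3). The ranges of the libraries overlapped between Gpc3 and Afp, between Bex1 and Sox4, between Sox4 and Cd44, and between the Igf2bp genes. In the N-Ras+AKT controls Afp came first (611.5 ± 305.4), followed by Ly6d (296.2 ± 49.7), Gpc3 (39.5 ± 5.57), Sox4 (21.4 ± 2.84), Bex1 (18.5 ± 2.26), Cd44 (10.1 ± 5.25), Igf2bp3 (0.573 ± 0.165) and Igf2bp2 (0.153 ± 0.0494, SD, n = 3). There the ranges overlapped between Afp and Ly6d and between Sox4 and Bex1. After depletion Ly6d came first in both models, at 72.4 ± 61.7 in DEN+CCl4 and 216.1 ± 65.0 in N-Ras+AKT. It was followed by Gpc3 (68.1 ± 13.9) and Afp (23.3 ± 9.88) in DEN+CCl4 and by Afp (171.8 ± 168.0) and Gpc3 (14.1 ± 12.9) in N-Ras+AKT. In both depletion groups Ly6d overlapped the gene next to it.

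**Figure D1:**
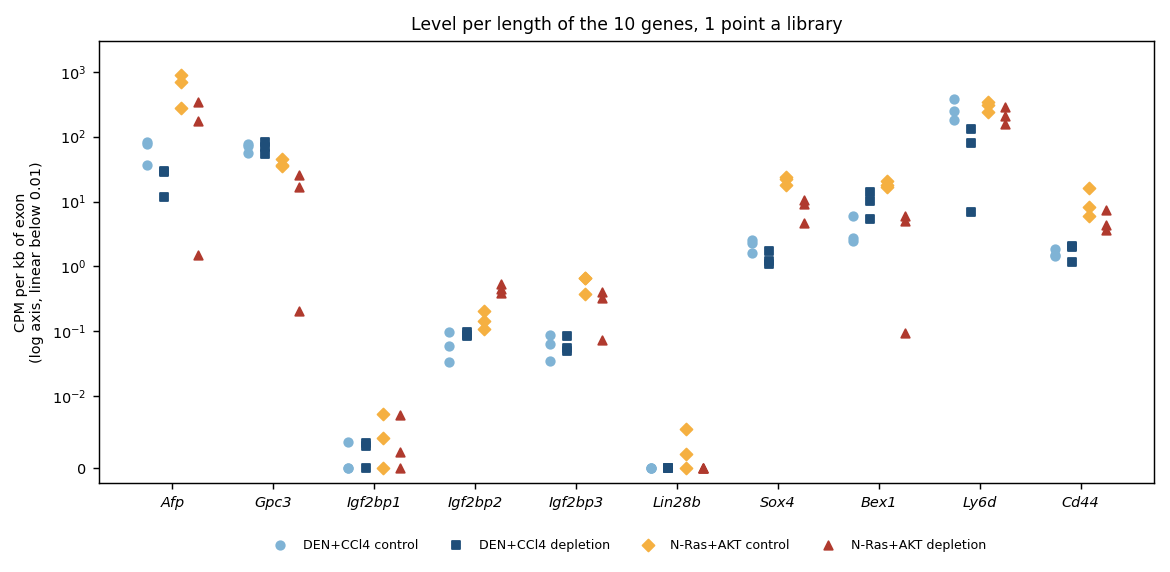
Level of the 10 genes per length (vertical axis, CPM per kb of exon, logarithmic above 0.01 and linear below it), 1 point a library, with the 4 groups side by side in colour for each gene. Ly6d, Afp and Gpc3 lie highest, Igf2bp1 and Lin28b lie at or near 0 in all 12 libraries, and 1 red triangle (N-Ras+AKT depletion 17) drops far below the others for Afp, Gpc3 and Bex1.

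Lin28b (ENSMUSG00000063804.8, chr10:45376620-45486395, minus strand) had no read in 10 of the 12 libraries and 3 and 1 counts in N-Ras+AKT controls 3 and 10. Igf2bp1 (ENSMUSG00000013415.9, chr11:95957163-96005940, minus strand) had 0 to 4 counts in each library. A count of 0 allows up to 3 counts, which is 0.0495 to 0.1068 CPM depending on the library, for counting error only. Both genes were therefore at or near the limit of detection in every group and were removed by the low-count filter. The paralog Lin28a, which also blocks let-7, was at the same limit, with 6 counts summed over the N-Ras+AKT controls, 3 over the depletion libraries and 0 over both DEN+CCl4 groups. The other 8 genes passed the filter, each with 10 or more reads in at least 5 libraries of each model, and were tested among the 17013 genes that passed.

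In N-Ras+AKT tumours labelled as depleted of Prom1-expressing cells, Sox4 was lower and Igf2bp2 was higher than in controls, and these were the genes of the 8 tested that passed. That is 2 of 8 against 23.7% of all genes tested, with 1 higher (background 12.8%) and 1 lower (background 10.8%), so the share is near the background. Without library 17 there were 4 of 8, Gpc3 and Bex1 joining as lower, against 10.1% of all genes in that fit (5.6% higher, 4.47% lower). In a bulk sample, fewer cells of a type and less RNA per cell cannot be told apart. In DEN+CCl4 tumours 0 of 8 passed edgeR's test, against 0.37% of all genes (0.112% higher, 0.259% lower), and 2 of 8 (Ly6d and Sox4, both lower) had an unadjusted p under 0.05, against 18.7% of all genes. The median log2 difference of the 8 was -1.24 in N-Ras+AKT (all genes -0.02) and 0.02 in DEN+CCl4 (all genes -0.01).

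Between the models more of the 8 genes passed. Among controls, Sox4, Igf2bp3, Cd44 and Igf2bp2 were higher in N-Ras+AKT than in DEN+CCl4 tumours, 4 of 8 against 40.6% of all genes in either direction, 20.8% higher and 19.8% lower. After depletion, 4 of 8 were again higher in N-Ras+AKT (33.7% of all genes in either direction, 17.9% higher, 15.8% lower), and they were the same genes: Igf2bp2, Sox4, Igf2bp3 and Cd44. The depletion effects of the models differed for 0 of 8 genes by edgeR, against 11.6% of all genes, and for 1 of 8 (Bex1) at an unadjusted p under 0.05, against 29.0%. These comparisons share libraries with one another, so they are given side by side for each gene and not as separate evidence.

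**Figure D2:**
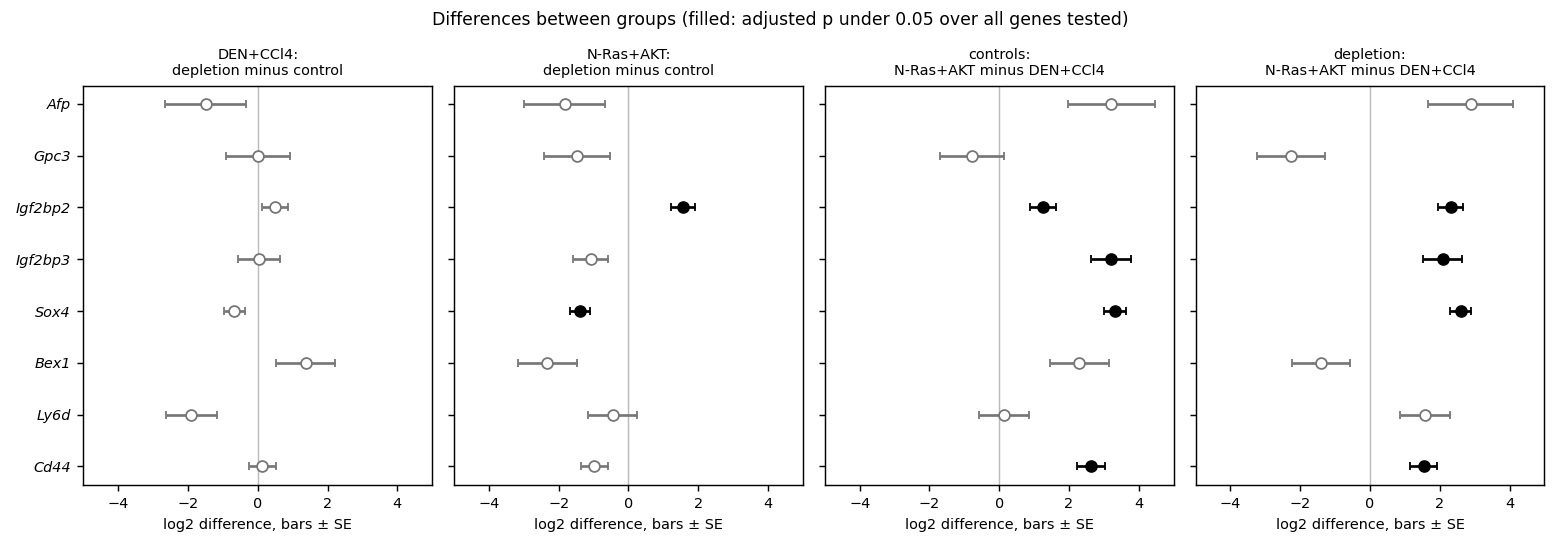
Log2 difference with its standard error for the 8 genes tested, in the depletion comparison of each model (left panels) and between the models among controls and among depletion libraries (right panels); filled points passed at an adjusted p under 0.05 over all genes tested. Igf2bp2 and Sox4 are the filled points of the N-Ras+AKT depletion panel, and no point of the DEN+CCl4 panel is filled.

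Afp (ENSMUSG00000054932.6, chr5:90490737-90508907, plus strand) codes for alpha-fetoprotein, the main serum protein of the fetus. It was 280.0, 262.5 and 121.3 CPM in DEN+CCl4 controls 7, 8 and 13 and 40.11, 99.96 and 95.18 CPM in depletion libraries 6, 9 and 10. All depletion libraries lay below all controls, which was so for 2 of the 8 genes (with Ly6d) and 16.0% of all genes; in either direction it was 2 of 8 and 27.5%, with 11.5% higher. Its log2 difference was -1.50 (SE 1.16, adjusted p = 0.525; 95% interval -3.77 to 0.78), which did not pass, and without depletion 6, the lowest, it was -1.18 (adjusted p = 0.796). The difference passed in 0 of 18 alternatives, with adjusted p-values of 0.151 (the 6 DEN+CCl4 libraries alone) to 0.796. In N-Ras+AKT, Afp was 931.5, 2301 and 2946 CPM in controls 3, 10 and 15 and 1136, 595.0 and 4.986 CPM in depletion libraries 6, 11 and 17. Library 17 was 173.6-fold below the mean of the other depletion libraries, and library 6 lay above control 3, so the groups overlapped. The log2 difference was -1.83 (SE 1.17, adjusted p = 0.283) with library 17 and -1.26 (adjusted p = 0.207) without it. It was -2.78 without library 6 (adjusted p = 0.207) and -3.62 with limma voom (adjusted p = 0.157). The summed markers of 4 other cell types also lay lower after depletion in DEN+CCl4, without overlap of the groups. Bile duct markers summed to 48.47 to 155.2 CPM against 196.9 to 495.5 CPM in controls, and 8 endothelial markers to 131.4 to 260.6 against 364.2 to 386.8 CPM. For 5 erythroid markers the sums were 3.621 to 19.49 against 47.43 to 88.91 CPM, and for the stellate cell and fibroblast markers 84.13 to 224.5 against 230.9 to 347.4 CPM. Of the single markers of these 4 lists 0 passed there, and their part in the Afp values was not tested. In N-Ras+AKT the endothelial sums (112.6 to 157.2 CPM in controls, 138.0 to 164.5 CPM after depletion) and the erythroid sums (200.3 to 668.5 and 159.1 to 323.2 CPM) overlapped.

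Between the models, every N-Ras+AKT control had more Afp than every DEN+CCl4 control. Such a gap without overlap was found for 6 of the 8 genes upwards (28.4% of all genes) and for Gpc3 downwards (26.1%), 7 of 8 in all against 54.5%. Afp was 2060 ± 1029 against 221.3 ± 86.99 CPM (SD, n = 3), or 9.31-fold in the fit (log2 3.22, SE 1.24). That difference missed the threshold in the fit over all libraries (adjusted p = 0.0602) and passed when library 17, which is in neither group, was left out (log2 3.22, adjusted p = 0.00146), since all groups share 1 estimate of the spread. After depletion Afp differed between the models by 2.88 (SE 1.22, adjusted p = 0.0933), and without library 17 by 3.45 (adjusted p = 0.00239). It was 2.86 with DESeq2 (adjusted p = 0.0396), 1.94 without N-Ras+AKT depletion 6 (adjusted p = 0.287) and 1.07 with limma voom (adjusted p = 0.596). Alb, the adult counterpart of Afp in the albumin family, differed the other way, at 55340 ± 1255 CPM in N-Ras+AKT controls and 167700 ± 24680 CPM in DEN+CCl4 controls (log2 -1.60, SE 0.21, adjusted p = 0.000211). Of 11 genes of the albumin family and its regulators, 7 were lower in N-Ras+AKT controls and 0 higher (19.8% and 20.8% of all genes), with a median log2 difference of -0.61 (all genes 0.04). Hepatocyte markers, of which Alb and Hnf4a are 2, moved with them: 12 of 14 were lower in N-Ras+AKT controls and 0 higher, with a median of -1.42. Their summed level was 268300 to 334200 CPM in DEN+CCl4 controls and 106300 to 118000 CPM in N-Ras+AKT controls, and its part in these differences was not tested. The 7 included Hnf4a (-1.22) and Foxa3 (-0.99), hepatocyte transcription factors that drive Alb and Afp. Zhx2, a repressor of Afp after birth, was lower as well (log2 -0.61, SE 0.12, adjusted p = 0.00176), from 20.5 ± 1.43 to 13.4 ± 1.61 CPM. Zbtb20, another postnatal repressor of Afp, did not pass (log2 -0.17, SE 0.16, adjusted p = 0.419). After depletion in N-Ras+AKT, Hnf4a was higher (log2 0.56, adjusted p = 0.0188) and Foxa3 lower (-0.61, adjusted p = 0.0146), while Zhx2 (0.05) and Zbtb20 (0.10) did not pass. Without library 17 Hnf4a (0.44, adjusted p = 0.0879) and Foxa3 (-0.54, adjusted p = 0.0619) did not pass either.

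Gpc3 (ENSMUSG00000055653.13, chrX:52272426-52613950, minus strand) codes for glypican-3, a heparan sulfate proteoglycan that binds growth factors and Wnt ligands. It was the flattest of the 8 in DEN+CCl4, at 151.2, 207.3 and 191.2 CPM in controls 7, 8 and 13 and 218.9, 186.5 and 144.5 CPM in depletion libraries 6, 9 and 10. The groups overlapped fully and the log2 difference was 0.00 (SE 0.92, 95% interval -1.81 to 1.81). In N-Ras+AKT it was 99.56, 95.99 and 123.5 CPM in controls 3, 10 and 15 and 69.16, 44.39 and 0.564 CPM in depletion libraries 6, 11 and 17. All depletion libraries lay below all controls, as for 3 of the 8 genes (Gpc3, Sox4 and Bex1) and 21.5% of all genes. Counting both directions, 4 of the 8 did not overlap, against 43.0%. The log2 difference was -1.48 (SE 0.94, adjusted p = 0.281). Without library 17, in which Gpc3 was 100.7-fold below the mean of the other depletion libraries, it was smaller and passed (log2 -0.91, adjusted p = 0.0359). It was -2.24 without library 6 (adjusted p = 0.199) and -3.15 with limma voom (adjusted p = 0.0909).

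Gpc3 was also the gene of the 8 that lay lower in N-Ras+AKT than in DEN+CCl4, in all 3 controls and in all 3 depletion libraries (22.3% of all genes lay lower without overlap there, and 46.6% in either direction), with neither difference passing (log2 -0.78 and -2.27, adjusted p = 0.529 and 0.0957). Without library 17 both passed (log2 -0.78 and -1.71, adjusted p = 0.0115 and 0.000661), and with limma voom over all libraries the second did (log2 -3.92, adjusted p = 0.0364). Among 7 other glypicans and glypican modifiers tested, Gpc2 was higher and Gpc4 lower in N-Ras+AKT controls (log2 3.26 and -1.12, adjusted p = 0.000758 and 0.000237). Notum, which codes for an enzyme that inactivates Wnt ligands held by glypicans, was lower there (log2 -3.37, adjusted p = 4.29e-05) and rose after depletion in N-Ras+AKT (log2 2.50, SE 0.32, adjusted p = 0.00334). Gpc2 fell in the same comparison by 2.02 (SE 0.48, adjusted p = 0.0128), and the other 5 did not pass.

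**Figure D3:**
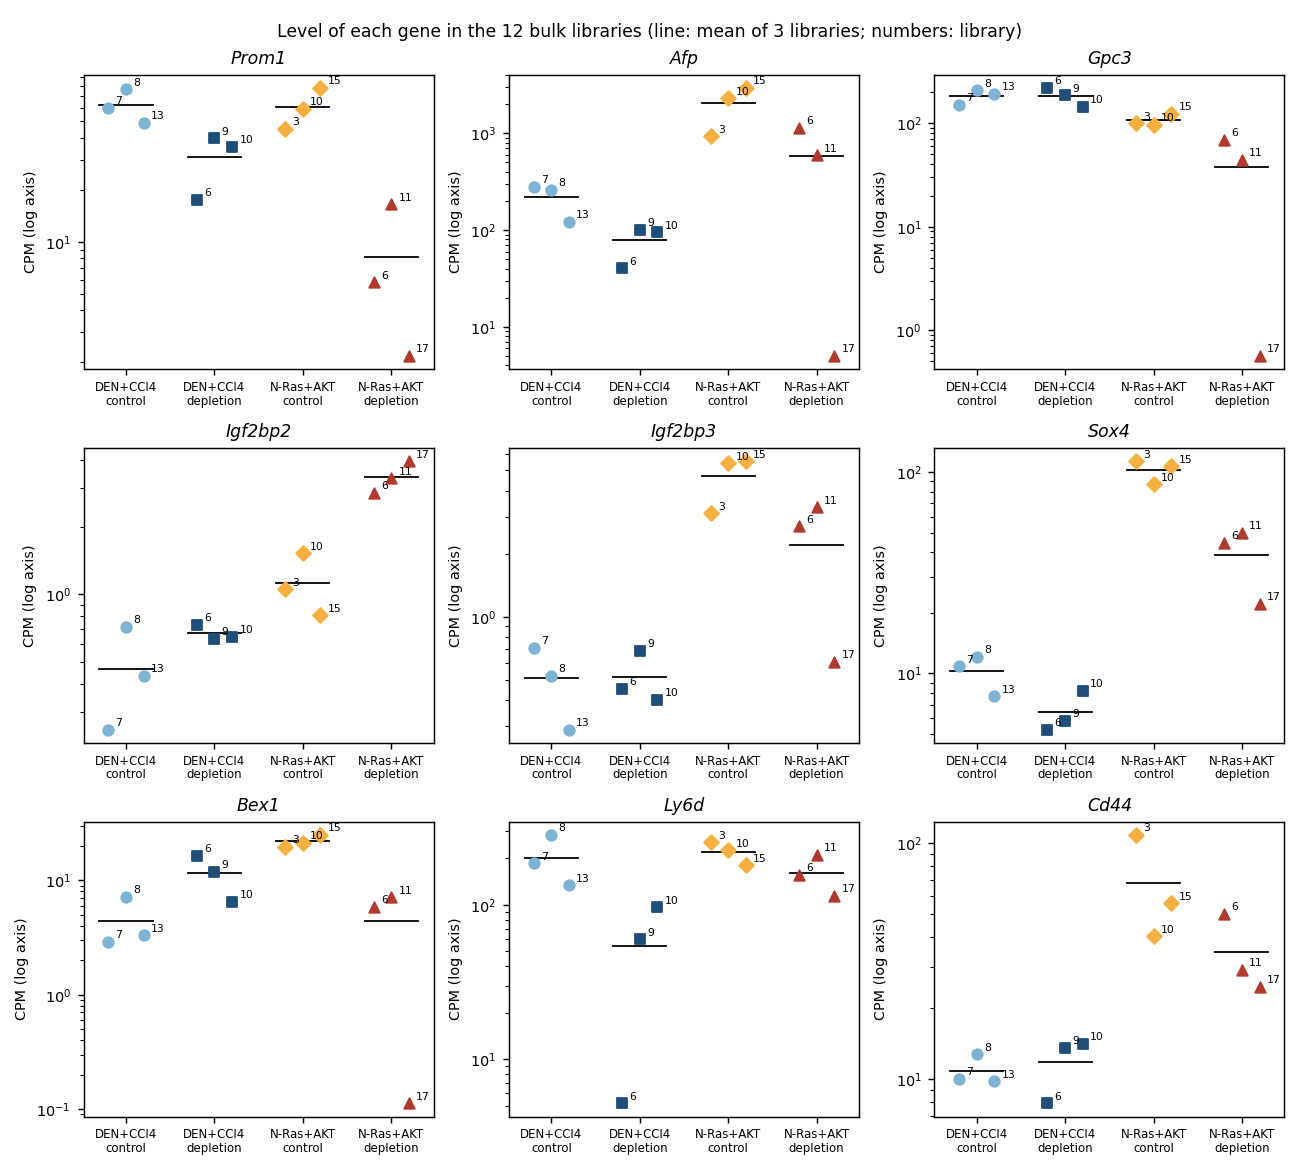
Level of Prom1 and of the 8 genes tested in each library (vertical axis, CPM, logarithmic and set for each gene), by group, with the library number beside each point and the mean of 3 libraries as a line. Igf2bp2 has all 3 N-Ras+AKT depletion libraries on top (2.844 to 3.925 CPM), Sox4 has them below the controls (22.18 to 49.98 against 87.08 to 113.1 CPM), and library 17 lies far below for Afp, Gpc3 and Bex1.

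Igf2bp2 (ENSMUSG00000033581.17, chr16:22059009-22163299, minus strand) and Igf2bp3 (ENSMUSG00000029814.10, chr6:49085223-49214957, minus strand) code for sister RNA-binding proteins. Igf2bp2 was 1.056, 1.528 and 0.8078 CPM in N-Ras+AKT controls 3, 10 and 15 and 2.844, 3.303 and 3.925 CPM in depletion libraries 6, 11 and 17. All depletion libraries lay above all controls, as for 1 of the 8 genes and 21.4% of all genes, and library 17 was the highest of the 12. That library also had the lowest bile duct sum of its model (309.6 CPM) and the highest leukocyte sum of all libraries (300.6 CPM), whose part in the result was not tested. Igf2bp2 rose 2.96-fold (log2 1.57, SE 0.34, adjusted p = 0.00857), and it passed in 18 of 18 alternatives, with adjusted p-values up to 0.0382. In DEN+CCl4 it was 0.2492, 0.7169 and 0.434 CPM in controls 7, 8 and 13 and 0.7312, 0.6323 and 0.6477 CPM in depletion libraries 6, 9 and 10. These are 7 to 26 reads a library, and the log2 difference was 0.50 (SE 0.38, adjusted p = 0.514). The difference between the models' effects was 1.07 (SE 0.51, adjusted p = 0.185).

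Igf2bp3 was 3.119, 5.393 and 5.513 CPM in N-Ras+AKT controls 3, 10 and 15 and 2.700, 3.325 and 0.6091 CPM in depletion libraries 6, 11 and 17. Depletion library 11 lay above control 3, so the groups overlapped, and the log2 difference was -1.08 (SE 0.50, adjusted p = 0.141). Library 17 was 4.95-fold below the mean of the other depletion libraries, and without it the log2 difference was -0.64 (adjusted p = 0.295). In DEN+CCl4 Igf2bp3 was 0.2893 to 0.712 CPM in controls and 0.401 to 0.6898 CPM after depletion, 10 to 24 reads a library, with a log2 difference of 0.04 (SE 0.60). Between controls Igf2bp3 was 9.23-fold higher in N-Ras+AKT (log2 3.21, SE 0.57, adjusted p = 0.00118), and this passed in 18 of 18 alternatives. The same comparison for Igf2bp2 was 2.38-fold (log2 1.25, SE 0.36, adjusted p = 0.0169). It was lost without DEN+CCl4 control 7 or 13 or N-Ras+AKT control 10 (adjusted p = 0.0639, 0.0589 and 0.0671) and in a fit of the 6 control libraries alone (adjusted p = 0.0505). After depletion both were higher in N-Ras+AKT, Igf2bp2 by 2.32 (SE 0.36, adjusted p = 0.000595) and Igf2bp3 by 2.09 (SE 0.56, adjusted p = 0.0140). Igf2bp3 lost that call without DEN+CCl4 depletion 10 or N-Ras+AKT depletion 11 (adjusted p = 0.0508 and 0.0535) and with limma voom (log2 1.77, adjusted p = 0.101).

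The let-7 axis around them, 16 other genes of which 15 were tested, had 2 members that passed on depletion in N-Ras+AKT, a smaller share than the 23.7% of all genes. There 1 rose, Tut7, which codes for an enzyme that adds uridines to let-7 precursors (log2 0.40, SE 0.12, adjusted p = 0.0273), and 1 fell, the cell cycle factor E2f5 (-0.91, SE 0.21, adjusted p = 0.0120), and the median was 0.11 (all genes -0.02). Without library 17 Tut7 did not pass (0.29, adjusted p = 0.134). In DEN+CCl4 0 of 15 passed. Hmga2, a chromatin protein of fetal cells whose 3′ UTR holds 4 seed matches, was at 0.1128 to 1.37 CPM and did not pass (log2 -1.28, SE 0.78, adjusted p = 0.257 in N-Ras+AKT). Between controls 2 of 15 were higher in N-Ras+AKT (Myc, log2 0.96, and E2f5, 0.72) and 6 were lower, against 20.8% and 19.8% of all genes. The lower ones included Ago2, which codes for the protein that carries microRNAs (-1.07, adjusted p = 0.000494), and Dicer1, the enzyme that cuts their precursors (-0.72, adjusted p = 0.000392).

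Sox4 (ENSMUSG00000076431.4, chr13:28948919-28953713, minus strand) passed both on depletion in N-Ras+AKT and between the models. It was 113.1, 87.08 and 106.9 CPM in N-Ras+AKT controls 3, 10 and 15 and 44.57, 49.98 and 22.18 CPM in depletion libraries 6, 11 and 17. No depletion library came near a control, and library 17 was the lowest, 2.13-fold below the mean of the other depletion libraries. Sox4 fell by 1.40 on the log2 scale (2.63-fold, SE 0.28, adjusted p = 0.00770), and the call was kept in 18 of 18 alternatives, without library 17 as well (log2 -1.12, adjusted p = 0.0132). In DEN+CCl4 it was 10.86, 12.13 and 7.696 CPM in controls 7, 8 and 13 and 5.258, 5.835 and 8.204 CPM in depletion libraries 6, 9 and 10. Libraries 6 and 9 lay below all controls and library 10 did not, and the log2 difference was -0.67 (SE 0.30, adjusted p = 0.255). The effects of the models differed by -0.73 (SE 0.41, adjusted p = 0.261).

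Between controls Sox4 was 10.0-fold higher in N-Ras+AKT (log2 3.32, SE 0.31, adjusted p = 3.90e-05), and after depletion 6.04-fold higher (log2 2.59, SE 0.30, adjusted p = 0.000153), both in 18 of 18 alternatives. Sox4 is expressed in bile duct and progenitor cells, and their markers moved with it. The summed level of 9 bile duct markers was 7146 to 10340 CPM in N-Ras+AKT controls, 309.6 to 3486 CPM after depletion, and 48.47 to 495.5 CPM over the DEN+CCl4 libraries, with none of the 9 at 0 throughout a group. Of 8 of them tested, 6 fell in N-Ras+AKT depletion (10.8% of all genes; 5 of 8 without library 17), among them Sox9 (-2.51), Epcam (-2.32) and Krt7 (-2.08), and in DEN+CCl4 0 passed, with Epcam at -0.62 (SE 0.56, adjusted p = 0.592). The part of these cells in the Sox4 difference was not tested. A list of stem and progenitor markers, in which Sox9 and Epcam are counted again, went both ways in N-Ras+AKT depletion. There 4 of 17 were higher and 8 lower (12.8% and 10.8% of all genes), with a median of -0.41 (all genes -0.02). Without library 17 there were 1 higher and 5 lower (5.6% and 4.47% of all genes in that fit). The largest rise was that of Lgr5, a receptor of Wnt-responsive hepatocytes (log2 2.60, SE 0.39, adjusted p = 0.00334), from 0.801 ± 0.396 to 4.85 ± 1.49 CPM. The largest fall was that of Sox11, from the same subfamily as Sox4 (log2 -2.72, SE 0.77, adjusted p = 0.0255), which was -2.15 without library 17 and did not pass (adjusted p = 0.0701). Sox12, also of that subfamily, went the other way and was higher after depletion in N-Ras+AKT (log2 0.94, SE 0.27, adjusted p = 0.0294). Between controls it was lower in N-Ras+AKT (log2 -1.35, SE 0.28, adjusted p = 0.00266).

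Bex1 (ENSMUSG00000050071.8, chrX:136213972-136215513, minus strand) lay lower after depletion in N-Ras+AKT and mostly higher in DEN+CCl4. In N-Ras+AKT it was 19.64, 21.37 and 24.90 CPM in controls 3, 10 and 15 and 5.903, 7.112 and 0.1128 CPM in depletion libraries 6, 11 and 17. Every depletion library lay below every control, and library 17 was 57.7-fold below the mean of the other depletion libraries. With library 17 the log2 difference was -2.33 (SE 0.85, adjusted p = 0.0710), and without it -1.76, which passed (adjusted p = 0.0344). With limma voom over all libraries it was larger and passed (-3.67, adjusted p = 0.0157). In DEN+CCl4 it was 2.919, 7.142 and 3.298 CPM in controls 7, 8 and 13 and 16.37, 11.93 and 6.477 CPM in depletion libraries 6, 9 and 10. Libraries 6 and 9 lay above all controls, library 10 did not, and the log2 difference was 1.37 (SE 0.84, adjusted p = 0.412), or 1.04 (adjusted p = 0.727) without library 6. This difference passed in 0 of 18 alternatives, with adjusted p-values of 0.106 (without N-Ras+AKT depletion 17) to 0.727. The difference of the effects was -3.70 (SE 1.19, adjusted p = 0.0710), which passed without library 17 (-3.15, adjusted p = 0.0218), with DESeq2 (-3.72, adjusted p = 0.0425) and with limma voom (-5.01, adjusted p = 0.0290).

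Bex1 was 4.91-fold higher in N-Ras+AKT than in DEN+CCl4 controls (log2 2.29, SE 0.85, adjusted p = 0.0528), without overlap of the groups. That difference passed without library 17 (log2 2.29, adjusted p = 0.00137), in a fit of the 6 control libraries alone (2.27, adjusted p = 0.00184), with DESeq2 (2.29, adjusted p = 0.0445) and with limma voom (2.38, adjusted p = 0.0336). After depletion it was -1.40 (SE 0.83, adjusted p = 0.220), -2.64 with limma voom (adjusted p = 0.0627), and -0.53 without N-Ras+AKT depletion 17 and DEN+CCl4 depletion 6 (adjusted p = 0.386). Of 1268 windows of 50 bases in Bex1 transcripts, 21.1% also occur in other genes, chiefly Bex4 (16.0%), so reads of these neighbours on the X chromosome can be exchanged and its level is uncertain to that extent. Bex4 and Bex3 fell in N-Ras+AKT depletion (log2 -2.48 and -2.20, SE 0.48 and 0.61, adjusted p = 0.00600 and 0.0258), from 3.11 ± 0.380 to 0.553 ± 0.330 CPM and from 18.7 ± 4.38 to 4.05 ± 2.82 CPM. Bex2 did not pass there (-1.22, SE 0.56, adjusted p = 0.135) and was lower in N-Ras+AKT than in DEN+CCl4 controls (-1.45, SE 0.51, adjusted p = 0.0396), where Bex3 and Bex4 were higher (1.64 and 1.50, adjusted p = 0.0478 and 0.0221).

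Ly6d (ENSMUSG00000034634.7, chr15:74762056-74763620, minus strand), a marker of early lymphoid cells and of some stressed or progenitor-like epithelia, was abundant in both models. In DEN+CCl4 it was 185.5, 283.6 and 133.8 CPM in controls 7, 8 and 13 and 5.188, 59.98 and 96.42 CPM in depletion libraries 6, 9 and 10. All depletion libraries lay below all controls, and depletion 6 stood far below the rest. The log2 difference was -1.90 (SE 0.73, adjusted p = 0.205), the most negative of the 8 genes in this model, and did not pass. It was -1.36 (adjusted p = 0.206) without depletion 6, -2.62 (adjusted p = 0.116) without depletion 10 and -2.59 (adjusted p = 0.149) with limma voom. The sums of bile duct, endothelial, erythroid and stellate cell markers given beside Afp lay lower in the same depletion libraries, and their part in the Ly6d values was not tested. In N-Ras+AKT it was 254.1, 226.2 and 180.8 CPM in controls 3, 10 and 15 and 156.7, 211.0 and 114.6 CPM in depletion libraries 6, 11 and 17. The groups overlapped (log2 -0.46, SE 0.71, adjusted p = 0.685), and the controls of the models were alike in range (log2 0.13, SE 0.71, 95% interval -1.25 to 1.52). After depletion every N-Ras+AKT library lay above every DEN+CCl4 library, as for 4 of the 8 genes (Igf2bp2, Sox4, Ly6d and Cd44) and 24.3% of all genes. The log2 difference there was 1.58 (SE 0.73, adjusted p = 0.120), and it was 1.20 and passed without both libraries that stood apart (adjusted p = 0.0342).

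Squamous epithelium, another source of Ly6d, gave summed levels of 7 markers of 1.254 to 8.188 CPM in DEN+CCl4 and 11.81 to 42.62 CPM in N-Ras+AKT, with Krt6a at 0 in 3 of the 4 groups, Krt14 at 0 in both N-Ras+AKT groups, and Trp63 (DEN+CCl4 controls) and Dsg3 (N-Ras+AKT depletion) at 0 in 1 group each. The 17 leukocyte markers summed to 183.0 to 193.1 CPM in DEN+CCl4 controls and 132.8 to 189.7 CPM after depletion, with 0 of 17 passing. Of 8 other Ly6 family genes tested, 0 passed in either depletion comparison.

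Cd44 (ENSMUSG00000005087.17, chr2:102811141-102901665, minus strand) passed between the models and not on depletion. It was 10.08, 12.79 and 9.808 CPM in DEN+CCl4 controls 7, 8 and 13 and 7.939, 13.65 and 14.13 CPM in depletion libraries 6, 9 and 10, with the groups overlapping (log2 0.13, SE 0.39, 95% interval -0.63 to 0.89). In N-Ras+AKT it was 108.2, 40.38 and 55.68 CPM in controls 3, 10 and 15 and 50.14, 29.02 and 24.70 CPM in depletion libraries 6, 11 and 17. Depletion 6 lay above control 10, and control 3 was the highest library. The log2 difference was -0.98 (SE 0.38, adjusted p = 0.0848). Without N-Ras+AKT control 3 it was -0.47 (adjusted p = 0.355), and it passed without control 10 (-1.24, adjusted p = 0.0348), without depletion 6 (-1.34, adjusted p = 0.0458) and with DESeq2 (-0.97, adjusted p = 0.0314).

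Between controls Cd44 was 6.25-fold higher in N-Ras+AKT (log2 2.64, SE 0.40, adjusted p = 0.000630) and after depletion 2.90-fold higher (log2 1.54, SE 0.39, adjusted p = 0.0120), both in 18 of 18 alternatives. Cd44 is also carried by leukocytes. Their 17 markers summed to 133.5 to 206.0 CPM in N-Ras+AKT controls and 204.8 to 300.6 CPM after depletion, and 6 of the 17 were higher there after depletion and 0 lower (12.8% and 10.8% of all genes), with a median log2 difference of 1.10 (all genes -0.02). They were led by Cd79a of B cells and by Nkg7 and Cd3e of cytotoxic and T cells. Without library 17 the count was 1 of 17 (Csf1r, of macrophages), against 5.6% of all genes higher in that fit. Ptprc, the pan-leukocyte gene, did not pass in either depletion comparison (log2 0.68 and -0.64, adjusted p = 0.0956 and 0.242). Between the models 3 of 17 were higher and 2 lower in N-Ras+AKT among controls (20.8% and 19.8% of all genes). After depletion 11 were higher and 0 lower (17.9% and 15.8% of all genes). The part of leukocytes in the Cd44 differences was not tested. Of 13 CD44 ligands and partners tested, 3 fell in N-Ras+AKT depletion and 0 rose, against 10.8% and 12.8% of all genes: Has3, a hyaluronan synthase (-2.13, adjusted p = 0.0113), Ezr, which links CD44 to actin (-1.19, adjusted p = 0.0156), and Mmp14, a membrane protease (-0.95, adjusted p = 0.00545). Between controls 6 were higher in N-Ras+AKT and 4 lower (20.8% and 19.8% of all genes), led by Spp1, which codes for the CD44 ligand osteopontin (log2 4.85, SE 1.02, adjusted p = 0.00380). Spp1 is also counted among the bile duct markers and the fetal liver genes, so its difference is not separate from theirs.

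Other fetal liver genes, 17 of 18 listed being tested, moved on depletion in N-Ras+AKT, where 6 fell and 1 rose (23.7% of all genes passed), with a median log2 difference of -1.58 (all genes -0.02). Without library 17, 5 fell and 1 rose (10.1% of all genes in that fit), with a median of -1.02. H19, a long RNA of the imprinted Igf2 locus, fell by 3.35 (SE 1.03, adjusted p = 0.0400), with 94.4 ± 22.1 CPM in controls and 9.27 ± 7.87 CPM after depletion. Mdk, a heparin-binding growth factor, fell by 2.54 (adjusted p = 0.00568) and Igf2, the growth factor for which the IGF2BP proteins are named, by 1.98 (adjusted p = 0.0191; without library 17 -1.66, adjusted p = 0.0753). Tff3, a secreted mucosal peptide, rose by 2.31 (SE 0.40, adjusted p = 0.00458), with 1.25 ± 0.607 CPM in controls and 6.22 ± 3.53 CPM after depletion. Epcam, counted above among the bile duct markers and the stem and progenitor markers, is on this list too. In DEN+CCl4 1 of 17 passed, against 0.37% of all genes (0.259% lower). It was Mest, another imprinted gene, which fell by 2.77 (SE 0.45, adjusted p = 0.0382) and was at -2.45 without depletion 6 (adjusted p = 0.0948). The median of the 17 in DEN+CCl4 was -0.81 (all genes -0.01), and H19 had 34.7 ± 15.3 CPM in controls and 4.16 ± 4.02 CPM after depletion there without passing (log2 -3.04, adjusted p = 0.168). The depletion effects of the models differed for 1 of the 17, Tff3 (11.6% of all genes).

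Prom1 was then related to the 8 genes library by library. In DEN+CCl4 the Prom1 levels of controls and depletion libraries run close (the lowest control at 48.90 and the highest depletion library at 39.98 CPM), so 1 correlation over the 6 libraries was taken for each of 17012 genes, on log2 CPM. Ly6d (Pearson's r = 0.97, permutation p = 0.00278; Spearman's rho = 0.94, permutation p = 0.0167) and Afp (r = 0.96, permutation p = 0.00417; rho = 0.94, permutation p = 0.0167) followed Prom1 most closely. Sox4 came next (r = 0.87, permutation p = 0.0167; rho = 0.83, permutation p = 0.0583). The exact test over 720 orders cannot give a p below 0.00139. After adjustment over all genes the Pearson p-values were 0.109, 0.109 and 0.137, and 0 of 8 genes passed, as did 0.0% of all genes. At an unadjusted p under 0.05 there were 3 of 8, against 24.2% of all genes. Without the 2 libraries farthest from the median of Prom1, control 8 and depletion 6, r was 0.81 for Ly6d, 0.92 for Afp and 0.66 for Sox4. The r of the other 5 genes lay between -0.67 (Bex1) and 0.47 (Cd44). These r values are not independent of the depletion comparison, which also separates Prom1.

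In N-Ras+AKT the libraries fell into 2 separate clusters of Prom1, 2.166 to 16.49 CPM and 45.36 to 78.25 CPM, of 3 libraries each. An r over them would restate the depletion comparison, and 3 libraries cannot be tested on their own, so none is given. Inside the depletion group the order of libraries 17, 6 and 11 by Prom1 was also the order by Sox4, Igf2bp3, Bex1 and Ly6d, and library 17 was the lowest in 7 of the 8 genes, Igf2bp2 being the exception. Inside the N-Ras+AKT controls the order by Prom1 was also that by Afp, Igf2bp3 and Bex1. Inside the DEN+CCl4 controls it was that by Sox4, Ly6d and Cd44, and inside the DEN+CCl4 depletion group that by Afp alone. Orders of 3 libraries often match by accident, and so does the lowest of 3. The share of all genes with the same order, or with library 17 lowest, was not counted.

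**Figure D4:**
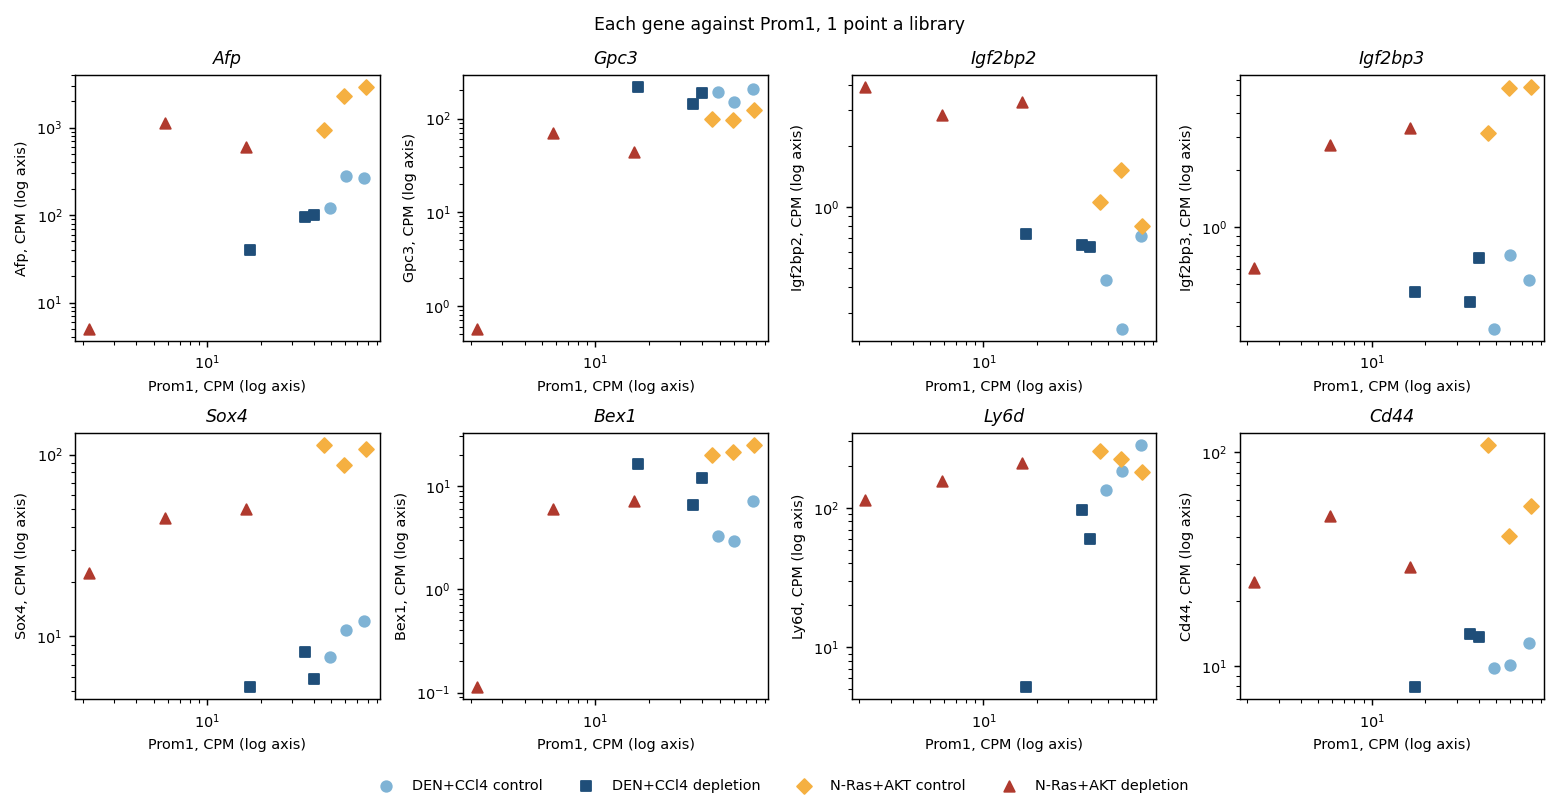
Level of each of the 8 genes (vertical axis, CPM) against Prom1 (horizontal axis, CPM), both logarithmic, 1 point a library, coloured by group. The N-Ras+AKT libraries form 2 clusters of Prom1, below 17 and above 45 CPM, and in the DEN+CCl4 libraries Afp and Ly6d rise with Prom1 (r = 0.96 and 0.97).

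With the 4 group means removed, the slope of each gene on Prom1 (log2 per log2) uses only differences among libraries of 1 group. By edgeR 0 of 8 genes passed and 0.0% of all genes, while 2 of 8 (Igf2bp3 and Sox4) had an unadjusted p under 0.05, against 8.42% of all genes. Igf2bp3 had a slope of 0.76 (SE 0.21, adjusted p = 0.295) and Sox4 of 0.38 (SE 0.11, adjusted p = 0.301). Without N-Ras+AKT depletion 17, the library lowest in Prom1, these were 0.40 and 0.21 (adjusted p = 0.998 for both). Ly6d, with the highest r in DEN+CCl4, had a slope of 0.58 that did not pass (SE 0.38, adjusted p = 0.723). Afp had the steepest slope, 1.63 (SE 0.85, adjusted p = 0.652), which was 0.49 without library 17 (adjusted p = 0.998). Of the alternatives run, leaving out N-Ras+AKT depletion 6 was the one in which it passed (2.13, SE 0.24, adjusted p = 0.00881), the library with low Prom1 and high Afp.

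Afp, Gpc3 and Bex1 are the 3 genes that were more than 50-fold lower in N-Ras+AKT depletion 17 than in the other depletion libraries of that group, and for this reason their promoters are shown. Each is the 250 bases before the start site, 5′ to 3′ on the strand of the gene (RefSeq, GRCm38.p6), with the motif matches described after them in capitals. A RefSeq promoter was found for 8 of the 10 genes.
Afp, chr5:90490464-90490713, plus strand: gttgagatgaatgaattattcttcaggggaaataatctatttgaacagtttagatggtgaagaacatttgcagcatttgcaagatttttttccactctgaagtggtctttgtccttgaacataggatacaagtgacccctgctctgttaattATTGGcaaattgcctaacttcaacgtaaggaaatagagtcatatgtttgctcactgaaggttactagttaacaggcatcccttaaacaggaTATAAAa
Gpc3, chrX:52613975-52614224, minus strand: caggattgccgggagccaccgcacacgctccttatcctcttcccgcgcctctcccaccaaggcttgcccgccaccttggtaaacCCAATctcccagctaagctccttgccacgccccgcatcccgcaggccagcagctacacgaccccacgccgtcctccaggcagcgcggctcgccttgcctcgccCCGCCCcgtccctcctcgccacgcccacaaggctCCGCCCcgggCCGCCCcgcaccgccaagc
Bex1, chrX:136215514-136215763, minus strand: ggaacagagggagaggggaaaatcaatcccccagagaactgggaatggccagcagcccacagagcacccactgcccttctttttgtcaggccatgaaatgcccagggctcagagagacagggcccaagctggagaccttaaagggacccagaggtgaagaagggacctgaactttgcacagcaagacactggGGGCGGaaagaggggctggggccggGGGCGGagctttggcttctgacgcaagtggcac
The motifs were searched on both strands. Of 32841 promoters of this length, 12.4% hold TATAAA, the TATA motif. The share with CCAAT, bound by the factor NF-Y, is 33.9%. GGGCGG, the GC box, is found in 32.7% of them. The Afp promoter held the TATA motif on the plus strand and CCAAT on the minus strand, and its GC content was 36.0%, against a median of 52.4% over all promoters. The Gpc3 promoter held 3 GC boxes on the minus strand, with CCAAT further upstream, and its GC content was 71.6%. The Bex1 promoter held 2 GC boxes, with a GC content of 59.6%. None of the motifs searched was common to all 3. A match is a description of letters and not a bound site.

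The genes whose pattern over the 12 libraries was most like each member were taken by Pearson's r of log2 CPM among 12248 genes. This is a description, in which all genes share library and depth. Group means were not removed, so differences between the models, and between controls and depletion libraries, enter each r. Sox4, Igf2bp3, Cd44 and Igf2bp2, for instance, passed between the controls of the models. A high r can therefore restate such a difference, and similarity within groups was not tested. The closest to Sox4 were Vopp1 (r = 0.99) and Adamts1 (r = 0.99), and the closest to Bex1 were Mycn (r = 0.97), which codes for a MYC family transcription factor, and Syde1 (r = 0.96). For Afp they were Cdh17, which codes for a cadherin of intestine and fetal liver (r = 0.96), and Efna4 (r = 0.95). For Gpc3 they were Cacna1c (r = 0.96) and Tspan8 (r = 0.95). For Igf2bp2 they were Nox4, which codes for an NADPH oxidase (r = 0.97), and March2 (r = 0.97), and for Igf2bp3 Thg1l (r = 0.97) and Hkdc1, which codes for a hexokinase (r = 0.96). For Ly6d they were Mlkl, which codes for the executor of necroptosis (r = 0.96), and Col27a1 (r = 0.95), and for Cd44 Nars (r = 0.97) and Atp6v1c1 (r = 0.97). No member was named among the closest pair of another.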

How the data were processed

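Per the labels' protocols, tumour RNA (RNAiso Plus) was selected by poly-A and prepared with a KAPA mRNA HyperPrep kit, and an Illumina NovaSeq instrument read it. The deposited bulk table holds whole-number counts per Ensembl gene for 12 libraries, not normalized, as its values show. The submitters' processing notes name RSEM 1.3.1, STAR 2.7.3, mm10 and Cell Ranger 3.0.2, with no order; for the annotation, the use of strand and any rounding, nothing is given in the sources used here. Of the series' samples, the 6 with single-cell data were left out and not analysed here.

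Identifiers were matched to GENCODE M21 (55154 of 55335; the other 181 held 0.0064% of counts). Counts were scaled by TMM (factors 0.773 to 1.323), filtered with filterByExpr (minimum count 10) and fitted with edgeR 4.0.16 (quasi-likelihood, robust, R 4.3.3) as 4 groups sharing 1 spread (8 residual degrees of freedom). Benjamini-Hochberg adjustment ran over all genes tested, and an adjusted p under 0.05 counted as passing. All adjusted p-values are from this test unless another tool is named. Intervals of 95% came from the fitted value and its standard error by the normal distribution. With so few libraries this makes them narrower than intervals that match the test. Prom1 was related to each gene by a fit with its log2 CPM as covariate and, in DEN+CCl4, by exact two-sided permutation of Pearson's r and Spearman's rho (log2 CPM, prior count 2). The same correlation over N-Ras+AKT libraries was planned and is not reported, since they form 2 separate clusters of Prom1. Alternatives were RLE size factors, no filter, DESeq2 1.42.0, limma 3.58.1 (voom), the 6 libraries compared alone, and libraries left out. The fits were tested on simulated data.

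The members and all gene lists were chosen with earlier results of these data known. Named genes are the members, up to 3 rises and 3 falls per list and comparison that passed, a fixed set (Zhx2, Zbtb20, Alb, Lin28a, Hmga2, Bex2, Epcam, Ptprc), and the 2 protein-coding genes of at least 1 CPM most correlated with each member. Named outside that rule, for what their products do and after their values were seen, were Krt7, Foxa3, Igf2 and Csf1r where they were not among the 3 largest changes, and H19 in DEN+CCl4. 2 genes of these lists and 1 promoter motif are not reported here.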

Additional observations from a re-analysis of the deposited data

How the results depend on the processing

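No paired analysis was possible because the groups compared share fewer than 2 replicate numbers. Sox4 and Igf2bp2 in N-Ras+AKT depletion, and Sox4, Igf2bp3 and Cd44 between the controls, kept their direction and passed in all 18 alternatives run for them. The number of members that passed in N-Ras+AKT depletion was 2, and 4 without N-Ras+AKT depletion 17, alone or together with DEN+CCl4 depletion 6 (10.1% and 14.0% of all genes in those fits; range on leaving out 1 library, 2 to 4). For the difference of effects it was 0, and 1 (Bex1) with DESeq2, with limma voom, and without library 17 or both libraries (17.5%, 11.7%, 5.35% and 4.85% of all genes; range 0 to 1). Between controls it was 4, and 7 without library 17 or both libraries (39.9% and 44.0% of all genes; range 3 to 7). Between depletion groups it was 4, and 7 without both libraries (25.0% of all genes; range 3 to 6). For the slope on Prom1 within groups it was 0, and 1 (Afp) without N-Ras+AKT depletion 6 (range 0 to 1).

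Values near 0 changed sign. The DEN+CCl4 depletion difference of Gpc3 was 0.00, -0.02 without the low-count filter, -0.14 without both libraries, and -0.14 to 0.15 on leaving out 1 library. On leaving out 1 library it was -0.25 to 0.34 for Igf2bp3 and -0.01 to 0.35 for Cd44. The difference of effects for Afp was -1.28 to 0.23 and the control difference of Ly6d -0.09 to 0.47. Slopes on Prom1 were -0.23 to 1.37 for Gpc3, -0.17 to 0.06 for Igf2bp2 and -0.19 to 0.41 for Cd44, and without both libraries -0.15, 0.17 and -0.52. In DEN+CCl4, r with Prom1 was -0.62 to 0.49 for Gpc3 and -0.40 to 0.65 for Cd44, and 0.03 and -0.90 without DEN+CCl4 control 8 and depletion 6. The cause was not tested.

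The background moved too. Of all genes, 63 passed in DEN+CCl4 depletion, with 2 without control 8, 13 in the 6 libraries alone, 171 without the filter and 1066 with DESeq2. In N-Ras+AKT depletion 4027 passed, and 1768 without library 17. The effects differed for 1970 genes, and for 844 without both libraries and 2984 with DESeq2. The slope on Prom1 passed for 0 genes, and for 10 with limma voom, 20 without the filter and 66 without N-Ras+AKT depletion 6. Depth limits Igf2bp1 and Lin28b, which could not be tested, and Igf2bp2 and Igf2bp3 in DEN+CCl4.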
